A study of Homo sapiens with 12 samples.

Results

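The 90 min response to serum was followed in HCT116 cells in which PFDN2 had been knocked down. HCT116 is a human colon carcinoma line. PFDN2 encodes a subunit of prefoldin, a chaperone complex that binds unfolded actin and tubulin chains and delivers them to TRiC, the chaperonin that folds them. Libraries were chosen by their titles, which gave 4 of the 12 libraries of the series: 2 taken before serum and 2 taken 90 min after it. All 4 came from cells that had received an siRNA against PFDN2 (siPFDN2) with Oligofectamine and were starved of serum for 48 h, beginning 24 h after the siRNA. The siControl cells, used for comparison, had a control siRNA and the same starvation and serum (2 libraries before, 2 after). Another 4 libraries had an siRNA against PFDN5. They entered the gene filter, the scaling, the mean level of each gene and the estimate of spread, but none of the responses reported here. Each target was knocked down with 1 siRNA in 1 cell line. The labels do not say whether the 2 replicates of a group were separate cultures, so p-values measure only the spread between these libraries, which may be technical.

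Serum given to starved cells activates growth factor receptors, the MAP kinase cascade and signalling to actin. Within minutes these act through SRF with its cofactors, CREB, NF-kB and YAP with TEAD to switch on immediate-early genes, which need no new protein synthesis. Many of the first products are transcription factors (FOS, EGR and NR4A families), and many others are inhibitors that shut the signal down again.

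By the labels the siRNA was what set these cells apart from siControl, so the sense strand of siPFDN2 is shown. It matched 1 of the 2 annotated PFDN2 transcripts in GENCODE release 29 and no transcript of another gene.
siPFDN2: cagccuagugaucgauaca

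PFDN2 lies on GRCh38 chr1:161100556-161118111. Abundance is given as CPM, a count over the whole gene body, introns included, divided by the library's TMM-scaled total and expressed per 1e6. In siPFDN2, PFDN2 read 7.55 and 8.49 CPM before serum, then 8.73 and 9.47 CPM after it. In siControl it read 11.5 and 11.2 CPM before serum, then 19.5 and 16.3 CPM after it. Every siPFDN2 library was below every siControl library. PFDN2 overlaps 1 other annotated gene, and fragments were counted in every gene they lay over. Its counts may therefore include fragments of that gene. The log2 difference from siControl was −0.50 (SE 0.16) before serum and −0.98 (SE 0.16) after it. Neither passed edgeR's quasi-likelihood test over all genes (adjusted p = 0.442 and 0.772), and on exon counts the differences were −0.75 and −1.10. Serum itself left PFDN2 at a log2 fold change of 0.18 (SE 0.16, adjusted p = 0.472 in edgeR) under siPFDN2.

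Gene-body counts came to 90602308 and 101654340 in the siPFDN2 libraries before serum and to 67060151 and 91641079 after it. Across the series they ran from 59784425 to 136504590. For cell type markers, CPM were taken over the library total without TMM scaling. The colon epithelial markers together held 2270 to 3300 CPM in the siPFDN2 libraries. The 8 fibroblast markers held 4.58 to 18.1 CPM and the 8 blood and endothelial markers 4.43 to 5.23 CPM, with 1 or 2 markers of each of these lists at 0 in every siPFDN2 library.

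One library stood apart. In siPFDN2 before serum replicate 2, the deviation of genes from the mean of the libraries rose with GC content (Spearman's rank correlation 0.815 across genes), whereas in the other 11 libraries it lay between −0.463 and 0.124. The 2 siPFDN2 libraries before serum differed from each other with an SD of 0.681 on the log2 scale over 12113 genes. In the other 5 groups that SD was 0.116 to 0.301. When genes were sorted into 10 bins by GC content, the median response under siPFDN2 went from 0.44 in the most AT-rich bin (median GC 36.9%) to −0.59 in the most GC-rich bin (63.6%). Against replicate 1 alone the same bins went from 0.06 to −0.08, and against replicate 2 alone from 0.98 to −0.96. After each library's GC trend was removed they went from 0.08 to 0.01. Results are therefore given from the fit to all libraries, with the value after removal of the GC trend, or without siPFDN2 before serum replicate 2, where these differ.

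**Figure D1:**
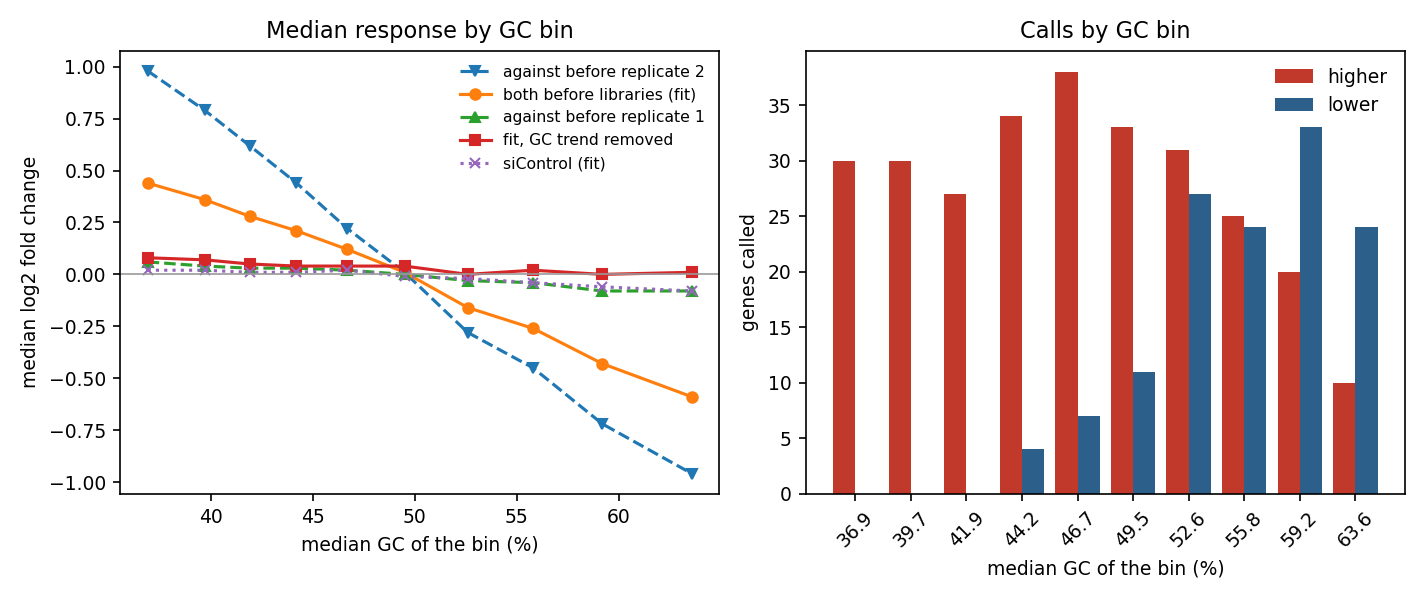
Left, median log2 fold change after against before serum in 10 bins of genes by GC content (x axis, median GC of the bin in percent) for siPFDN2 as fitted, with the GC trend removed, against each before-serum library alone, and for siControl as fitted. Right, genes called higher and lower under siPFDN2 in each bin. The line against before-serum replicate 2 falls from 0.98 to −0.96, and the 3 most AT-rich bins hold 0 of the genes called lower.

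Of 58051 genes, 27915 had enough counts to be tested. Serum changed 910 of them under siPFDN2 (3.26% of those tested, edgeR's quasi-likelihood test, Benjamini-Hochberg adjusted p under 0.05). The count was 574 higher (2.06%) and 336 lower (1.20%). For each gene this fit shares 1 estimate of spread over the 6 groups, and the siPFDN2 libraries before serum differed from each other most. Fitted alone, the 4 siPFDN2 libraries gave 37 genes higher and 0 lower. In each of the 910 genes the after-serum libraries lay wholly above or wholly below the before-serum libraries. Rises were larger than falls: fitted folds of at least 4 were reached by 196 of the genes called higher and by 20 of those called lower. With the GC trend removed 6.72% of genes were called, 1112 higher (3.98%) and 764 lower (2.74%). Called in both fits were 551 higher and 288 lower genes. Without siPFDN2 before serum replicate 2 the counts were 729 higher (2.51%) and 431 lower (1.48%). Of the genes first called, 484 higher and 232 lower were called again without that library. When each of the 12 libraries was left out in turn, 219 genes were called higher and 2 lower in all 12 fits. The 2 were AXIN2 and AC004805.1, which overlap each other. In bulk RNA, more cells that express a gene and more RNA per cell cannot be told apart.

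Genes that rose most were transcription factors of the NR4A, FOS, EGR and ATF families, matricellular proteins and a chemokine. Among the protein-coding genes at a usable level, the 11 leading rises were NR4A3, CCN2 (CTGF in the annotation), CXCL8, FOSB, EGR3, THBS1, CCN1 (CYR61), EGR2, ATF3, NR4A1 and NR4A2, with log2 fold changes from 8.39 down to 4.58. All 11 were called in each of the 12 fits that left out a library. THBS1 encodes thrombospondin 1, an extracellular glycoprotein, and it went from 6.84 and 7.79 CPM to 408 and 416 CPM (log2 fold change 5.82, SE 0.16, adjusted p = 9.31e-09 in edgeR). Its after-serum libraries were far above both before-serum libraries and lay close together.

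**Figure D2:**
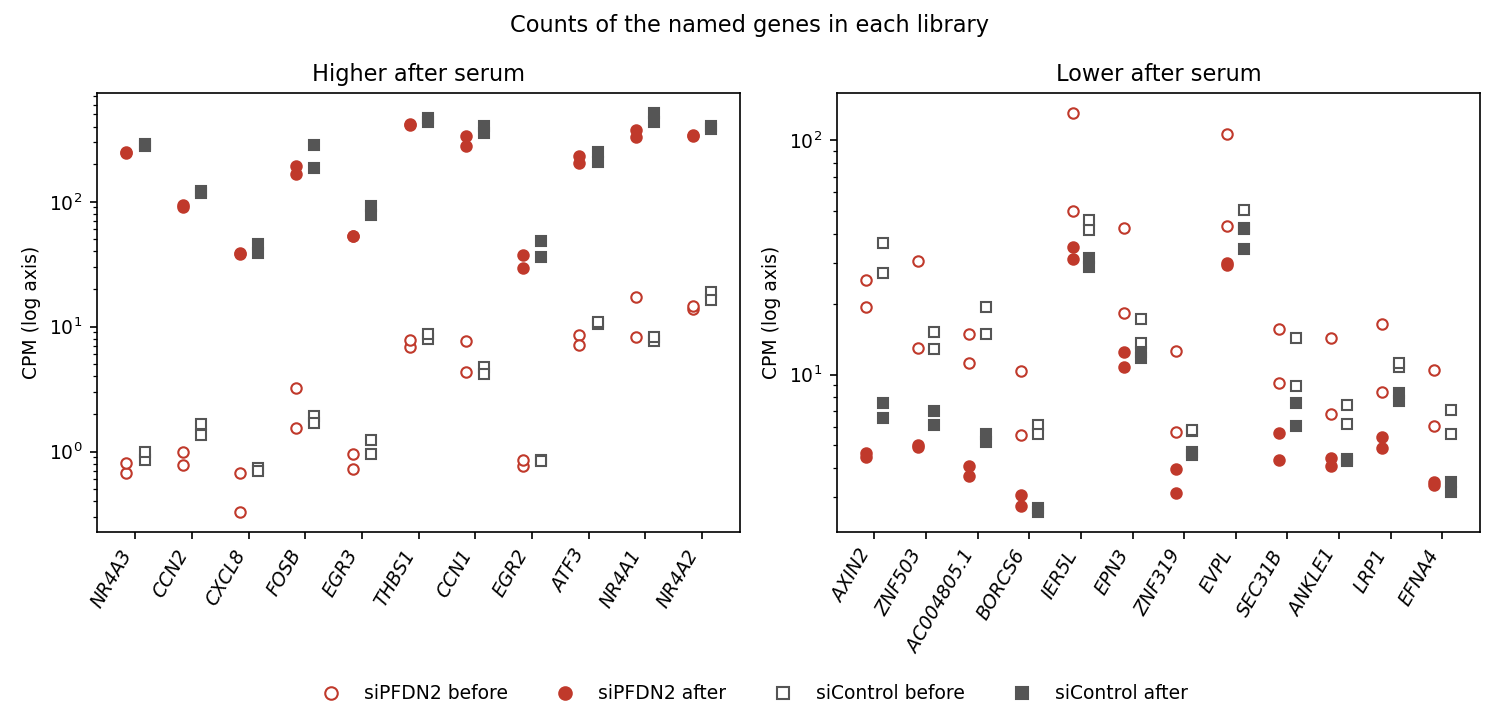
CPM (log axis) of the 11 named genes that rose most and the 12 that fell most, in each library. Circles are siPFDN2, squares siControl, open before serum and filled after it. NR4A3 goes from below 1 CPM to about 250 CPM in siPFDN2, while the genes on the right fall by less, and several have 1 open circle well above the other.

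The 3 NR4A genes encode orphan nuclear receptors that bind DNA without a known natural ligand, and all 3 rose. NR4A3 (chr9:99821855-99866891) read 0.677 and 0.808 CPM before serum, then 252 and 247 CPM after it. This was the largest rise of the response, with a log2 fold change of 8.39 (SE 0.19, adjusted p = 2.29e-09 in edgeR). NR4A2 went from 13.8 and 14.6 CPM to 340 and 338 CPM, a log2 fold change of 4.58. NR4A1 went from 8.27 and 17.2 CPM to 329 and 379 CPM. The 2 before-serum libraries of NR4A1 differed by more than those of the other members, but both stayed far below the after-serum libraries. Its log2 fold change was 4.79 (SE 0.32), and 5.29 with the GC trend removed.

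Of the 12 genes of AP-1 and ATF/CREB factors, which pair as leucine zipper dimers on AP-1 and CRE sites, 9 rose and 0 fell (median log2 fold change 2.27, against −0.02 over all tested genes). FOSB read 1.53 and 3.20 CPM before serum, then 167 and 195 CPM after it. FOS itself went from 4.32 and 5.97 CPM to 32.3 and 42.7 CPM. In neither gene did the groups overlap. FOSB rose by 6.25 (SE 0.37) and FOS by 2.87 (SE 0.31) on the log2 scale. ATF3, a factor induced by many stresses, went from 8.53 and 7.07 CPM to 203 and 234 CPM, a log2 fold change of 4.81. MAFF, a small MAF protein, rose by 3.59, FOSL2 by 2.89, JUN by 2.70, CREM by 1.83, FOSL1 by 1.76 and JUNB by 1.58 on the log2 scale. The 3 members that did not pass were JUND, MAFK and BATF3, and with the GC trend removed only BATF3 did not. MAFK stood at 0.71 (adjusted p = 0.105 in edgeR), and at 1.30 with the GC trend removed (adjusted p = 5.21e-06). JUND is rich in GC and read 28.3 and 73.3 CPM before serum, then 62.8 and 72.8 CPM after it. Its groups overlapped through the second before-serum library. Its log2 fold change was 0.42 (adjusted p = 0.40 in edgeR), and 1.26 without that library (adjusted p = 1.94e-05).

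EGR factors are zinc finger proteins, and the NAB proteins are corepressors that EGR factors induce and that bind them in turn. All 4 EGR genes rose and neither NAB gene passed the test. EGR3 went from 0.719 and 0.949 CPM to 52.8 and 52.8 CPM (log2 fold change 5.97). EGR2 went from 0.772 and 0.861 CPM to 29.6 and 37.7 CPM (5.36). EGR1 read 15.4 and 28.4 CPM before serum, then 79.0 and 104 CPM after it. EGR1 was thus already present in starved cells, and its rise was smaller, at a log2 fold change of 2.06 (SE 0.36, adjusted p = 0.0115 in edgeR). Without siPFDN2 before serum replicate 2 it was 2.57 and no longer passed (adjusted p = 0.0861). EGR4 rose by 2.51 but did not exceed 1.05 CPM. NAB2 stood at 0.13 (SE 0.18), or at 0.64 with the GC trend removed (adjusted p = 0.0109 in edgeR), and NAB1 at 0.51 (SE 0.19).

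SRF binds the CArG box, the core of the serum response element. The promoter stretches of EGR1 and of SRF itself are shown because each held a pair of CArG boxes (capitals) close to the start. They are taken from RefSeq on GRCh38.p14, plus strand, from chr5:138465354-138465425 for EGR1 and chr6:43171219-43171268 for SRF. In EGR1 the boxes began 105 and 83 bases before the start, and in SRF 30 and 10 bases before it.
EGR1: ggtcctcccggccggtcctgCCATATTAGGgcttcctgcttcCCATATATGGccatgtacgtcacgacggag
SRF: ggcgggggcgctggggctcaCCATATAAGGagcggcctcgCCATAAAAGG
A window of 300 bases, 250 before to 50 after the start, was searched on both strands. A CArG box was found in 17 of 326 promoters (5.2%) of genes called higher with and without the GC trend, the number of the 551 such genes with a RefSeq promoter. It was found in 1 of 184 promoters (0.5%) of genes called lower in both fits, in 1.0% of the 14513 promoters of tested genes and in 1.3% of all 27305 promoters. The 17 included EGR1, SRF, FHL2, TPM4, ACTG2 and RCAN1.

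SRF rose, and with it 6 of the 19 other genes on a list of SRF and MRTF cytoskeletal targets, while 0 fell (7 of 20 higher, median log2 fold change 0.27). SRF went from 33.0 and 54.1 CPM to 119 and 125 CPM (1.48, SE 0.20, adjusted p = 0.00231 in edgeR). VCL, the focal adhesion protein vinculin, went from 202 and 226 CPM to 494 and 418 CPM (1.09). FHL2, a LIM protein, went from 36.1 and 39.5 CPM to 95.3 and 94.0 CPM (1.33). In all 3 the groups were apart. LIMA1, TPM4, MYL9 and TAGLN, which encode actin-binding or myosin proteins, rose by 0.93 to 1.40. The actins ACTB and ACTG1 each stood at 0.20 and did not pass. ACTB read 1141 and 1770 CPM before serum, then 1626 and 1709 CPM after it, so that its groups overlapped through the second before-serum library. Removal of the GC trend brought this list to 11 higher members and omission of siPFDN2 before serum replicate 2 to 12, ACTB, ACTG1, CNN2 and ZYX among them in both.

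YAP and its partner TEAD act downstream of actin, and 7 of 13 of their known targets rose while 0 fell (median 1.46). CCN2 and CCN1 encode secreted matricellular proteins. CCN2 went from 0.994 and 0.781 CPM to 91.0 and 93.5 CPM (log2 fold change 6.70, SE 0.21, adjusted p = 2.64e-08 in edgeR). CCN1 went from 4.35 and 7.61 CPM to 281 and 336 CPM (5.69, SE 0.28). For both, the lowest after-serum library was above every before-serum library many times over. NUAK2, a kinase, rose by 3.49, F3, which encodes tissue factor, by 1.93, LATS2, a kinase that inhibits YAP, by 1.71 and AMOTL2, another YAP inhibitor, by 1.46. ANKRD1 rose by 3.04 and did not exceed 0.961 CPM. AXL, AJUBA, AMOTL1, ARHGEF17, CRIM1 and TGFB2 did not pass, with log2 fold changes from −0.65 to 0.62.

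The CCN2 promoter is shown for its 3 copies of the TEAD core GGAATG (capitals), which began 169, 104 and 95 bases before the start. The stretch is RefSeq GRCh38.p14 chr6:131951442-131951561, minus strand.
CCN2: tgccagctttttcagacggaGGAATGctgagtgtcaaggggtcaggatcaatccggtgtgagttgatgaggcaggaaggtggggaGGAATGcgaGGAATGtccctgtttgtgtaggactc
On its own this 6-base core was common. It was in 46 of the 326 promoters of genes called higher in both fits (14.1%), in 11.6% of those of tested genes and in 14% of all promoters.

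Of 16 tested NF-kB targets and cytokines, 9 rose and 0 fell (median 1.36). CXCL8, the neutrophil chemokine interleukin 8, went from 0.677 and 0.328 CPM to 38.5 and 37.8 CPM (log2 fold change 6.26, SE 0.28). NFKBIA, the inhibitor of NF-kB, went from 25.4 and 29 CPM to 78.0 and 81.2 CPM (1.55, SE 0.13). TNFAIP3, the deubiquitinase A20, went from 2.31 and 2.93 CPM to 22.2 and 21.6 CPM (3.06, SE 0.19). The groups of these 3 genes were well apart. BIRC3, an inhibitor of apoptosis, rose by 2.45, LIF, a cytokine of the interleukin 6 family, by 1.42 and NFKBIZ, a nuclear cofactor, by 0.89. The chemokines CXCL2 and CXCL1 rose by 2.63 and 2.19 and stayed under 4 CPM, and CCL20 rose by 3.70 and stayed under 0.5 CPM. ICAM1, IL11, NFKB1, NFKB2, NFKBIE, CXCL3 and RELB did not pass, although RELB was higher with the GC trend removed (1.74, adjusted p = 2.60e-05 in edgeR). IL6 and TNF had too few counts to be tested.

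Promoter stretches from this list and from CRE-bearing genes are shown for the motif each carried (capitals), all from RefSeq GRCh38.p14. They are CXCL8 with an AP-1 site, TGANTCA (chr4:73740412-73740458, plus strand), CXCL2 and NFKBIA with an NF-kB site, GGGNNTTTCC (chr4:74099244-74099293 and chr14:35404801-35404850, both minus strand, the NFKBIA site read on the opposite strand), and DUSP1 and MAFF with a full CRE, TGACGTCA (chr5:172771293-172771340, minus strand, and chr22:38201920-38201967, plus strand).
CXCL8: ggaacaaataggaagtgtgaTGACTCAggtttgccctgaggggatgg
CXCL2: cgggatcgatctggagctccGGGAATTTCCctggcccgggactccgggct
NFKBIA: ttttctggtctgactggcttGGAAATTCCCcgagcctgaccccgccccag
DUSP1: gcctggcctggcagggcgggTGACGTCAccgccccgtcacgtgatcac
MAFF: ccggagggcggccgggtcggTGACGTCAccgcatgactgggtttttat
The AP-1 site was in 44 of the 326 promoters of genes called higher in both fits (13.5%), against 5.5% of those of tested genes and 7.8% of all promoters. The NF-kB site was in 17 (5.2%), against 2.0% and 1.9%. The CRE was in 14 (4.3%), against 2.9% and 2.0%. An EGR site, GCGTGGGCG, was in 6 (1.8%), against 1.2% and 0.8%, and a TCF site, CTTTGAT, in 3 (0.9%), against 1.7% and 2.6%. In the 184 promoters of genes called lower in both fits, 7 held the AP-1 site, 0 the NF-kB site and 2 the CRE. Base composition of the promoters was not matched between these groups.

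Genes that damp MAP kinase signalling moved apart. Of 17, 7 rose, 1 fell and 9 did not pass (median 0.43). The rises were in dual-specificity phosphatases and ERRFI1, an inhibitor of the EGF receptor. DUSP5, which acts on nuclear ERK, went from 87.6 and 78.3 CPM to 854 and 888 CPM (log2 fold change 3.39, SE 0.14, adjusted p = 1.57e-07 in edgeR). DUSP1 went from 6.43 and 6.57 CPM to 44.8 and 52.7 CPM (2.91, SE 0.17). ERRFI1 went from 421 and 273 CPM to 1304 and 1251 CPM (1.88, SE 0.20). DUSP2, DUSP4, DUSP10 and DUSP14 rose by 1.14 to 1.96. SPRY1, a Sprouty inhibitor of receptor tyrosine kinase signalling, went the other way, from 4.03 and 4.44 CPM to 1.76 and 1.91 CPM (−1.20, SE 0.20, adjusted p = 0.00833 in edgeR). Both after-serum libraries of SPRY1 were below both before-serum libraries. SPRY2, SPRY4, the 3 SPRED genes and DUSP6, the cytosolic ERK phosphatase, did not pass.

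Of 9 genes of the EGF receptor family and its ligands, 3 rose and 0 fell, all 3 of them ligands: AREG (amphiregulin), EREG (epiregulin) and HBEGF. AREG went from 120 and 80.7 CPM to 617 and 593 CPM (log2 fold change 2.59, SE 0.19). EREG went from 778 and 300 CPM to 1946 and 1841 CPM (1.81, SE 0.33). HBEGF went from 4.94 and 4.55 CPM to 15.4 and 14.4 CPM (1.65, SE 0.14). EREG was the most uneven of these before serum, and without replicate 2 its log2 fold change was 1.28 (adjusted p = 3.36e-05 in edgeR). EGFR stood at 0.26, ERBB2 at −0.52 and ERBB3 at −0.30, and TGFA, BTC and EPGN lay between 0.50 and 1.37 without passing.

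Of 10 KLF factors, zinc finger proteins of GC-rich promoters, 4 rose and 0 fell (median 0.70). KLF6 went from 28.7 and 34.9 CPM to 171 and 183 CPM (2.48). KLF5 went from 42.8 and 27.4 CPM to 193 and 169 CPM (2.36), and KLF4 from 6.57 and 6.98 CPM to 34.1 and 33.4 CPM (2.31). KLF10, a TGF-beta inducible member, rose by 1.44. Without siPFDN2 before serum replicate 2, 6 were higher. KLF2 stood at 0.83 and did not pass, and with the GC trend removed it was higher by 1.45 (adjusted p = 5.46e-05 in edgeR).

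Of 15 genes of the IER family and other early response genes, 10 rose and 1 fell (median 1.01). GEM, a small GTPase, rose by 2.97, CSRNP1, a nuclear protein, by 2.60, PLK2, a polo-like kinase, by 2.52 and SGK1, a serum-regulated kinase, by 2.51. TRIB1, a pseudokinase, went from 268 and 265 CPM to 850 and 849 CPM (1.67, SE 0.13). MCL1, an inhibitor of apoptosis, went from 131 and 103 CPM to 328 and 336 CPM (1.5, SE 0.14), and IER3 rose by 1.42. IER5L was the member that fell. It read 49.7 and 130 CPM before serum, then 31.3 and 35.2 CPM after it, so that most of its fall rested on the second before-serum library. Its log2 fold change was −1.44 (adjusted p = 0.0410 in edgeR), and −0.58 without that library (adjusted p = 0.0113).

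**Figure D3:**
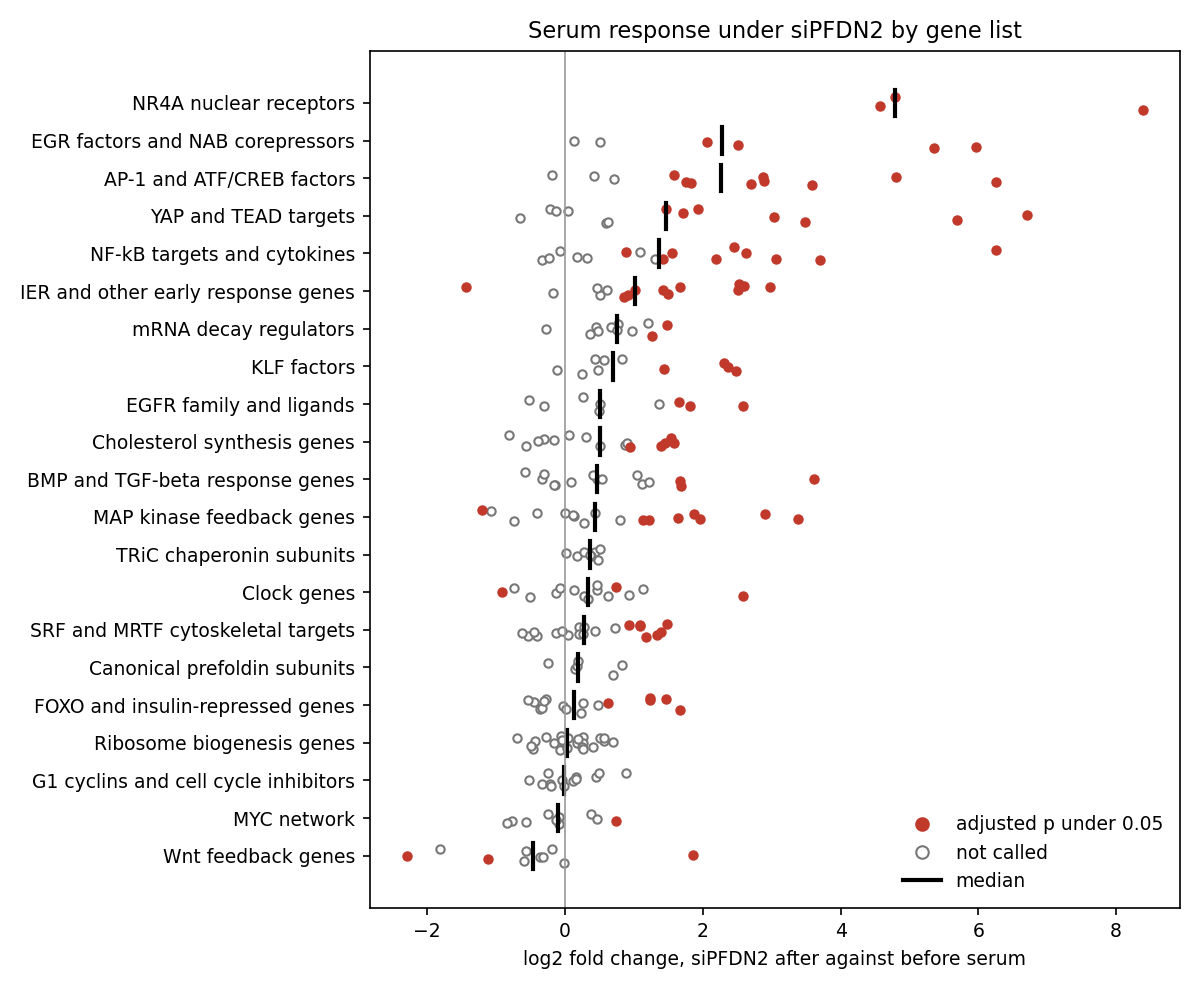
Log2 fold change after against before serum under siPFDN2 (x axis) for the tested members of 21 gene lists (rows, ordered by median). Filled points passed the test, open points did not, and black bars are medians. NR4A, EGR and AP-1 genes lie to the right, and Wnt feedback genes have the lowest median, −0.46, in this fit, but −0.10 with the GC trend removed, where FOXO and insulin-repressed genes are lower at −0.18.

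Of 11 genes that act on mRNA decay or deadenylation, 2 passed in the fit to all libraries, where 3.26% of all tested genes did. BTG1 and BTG2 rose by 1.48 and 1.27, and the other 9 of 11 did not pass (median of the list 0.75, against −0.02 over all tested genes). ZFP36, which encodes tristetraprolin, read 9.38 and 19.3 CPM before serum, then 31.0 and 35.4 CPM after it. Its libraries did not overlap, but the log2 fold change of 1.21 had an SE of 0.32 (adjusted p = 0.0683 in edgeR). With the GC trend removed, 7 of the 11 were called higher, ZFP36 among them (1.61, adjusted p = 0.00302).

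Wnt feedback genes included the steepest named fall. AXIN2, a scaffold of the beta-catenin destruction complex and a standard Wnt target, lies at chr17:65528563-65561647. It went from 19.4 and 25.4 CPM to 4.64 and 4.47 CPM. Both after-serum libraries were far below both before-serum libraries, a log2 fold change of −2.30 (SE 0.20, adjusted p = 7.25e-05 in edgeR). It was called lower in all 12 fits that left out a library, and its value was −2.11 with the GC trend removed. The gene overlaps AC004805.1, also among the genes named lower (−1.75), and both lie on the same strand. Fragments were counted in every gene they lay over, so the counts of these 2 genes are not separate. RNF43, a ubiquitin ligase that removes Wnt receptors, went from 74.2 and 95.5 CPM to 38.7 and 39.6 CPM (−1.12, SE 0.16, adjusted p = 0.00327). DKK1, a secreted Wnt antagonist, rose from 90.7 and 66.5 CPM to 300 and 269 CPM (1.86). The other 7 of 10 tested members, NKD1, NKD2, SP5, ZNRF3, NOTUM, TCF7 and TNFRSF19, did not pass and lay between −1.81 and −0.02. LGR5, LEF1, ASCL2 and APCDD1 had too few counts to be tested.

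The remaining named falls were smaller and mostly in GC-rich genes. They were ZNF503, BORCS6, IER5L, EPN3, ZNF319, EVPL, SEC31B, ANKLE1, LRP1 and EFNA4, with log2 fold changes from −2.13 to −1.26 in the fit to all libraries. Without siPFDN2 before serum replicate 2 each fall was smaller, and the range was −1.39 to −0.53. EPN3 then stood at −0.65, ZNF319 and ANKLE1 at −0.69 and LRP1 at −0.72. ZNF503, a zinc finger repressor, read 13 and 30.4 CPM before serum, then 4.89 and 5.00 CPM after it. Its groups were apart whichever before-serum library was used, and its log2 fold change was −2.13 (SE 0.32), or −1.39 without replicate 2 (adjusted p = 4.47e-05 in edgeR). EVPL, the desmosomal protein envoplakin, read 42.9 and 107 CPM before serum, then 29.9 and 29.4 CPM after it. Here the second before-serum library was far above the first, and the value went from −1.33 (SE 0.32) to −0.53 without it. For SEC31B the call was lost without that library (−0.90, adjusted p = 0.139 in edgeR). Among protein-coding genes called lower with and without the GC trend the median GC content was 57.5%, against 49.1% for all tested protein-coding genes and 47.3% for those called higher. The second before-serum library, in which GC-rich genes were high, entered both values, and its part in the falls was tested only by leaving it out and by removing the trend.

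In genes that FOXO factors or low insulin induce, 5 of 16 rose and 0 fell (median 0.12). They were YPEL5 (1.67), GADD45A (1.47), CITED2 (1.24), IRS2 (1.24) and BCL6 (0.63). YPEL5 went from 14.5 and 9.12 CPM to 36.8 and 38.2 CPM. CCNG2, an atypical cyclin and FOXO target, read 21.0 and 13.7 CPM before serum, then 13.8 and 14.9 CPM after it, so that its groups overlapped through the second before-serum library. With the GC trend removed CCNG2, SESN1 and TRIB2 were called lower, with log2 fold changes of −0.54, −0.52 and −0.45.

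Of 15 genes of cholesterol synthesis, targets of SREBP2, 5 rose and 0 fell (median 0.51), INSIG1, HMGCS1 and IDI1 among them. INSIG1, a retention factor of SREBP, went from 91.0 and 59.1 CPM to 232 and 220 CPM (1.59, SE 0.21). HMGCS1, an enzyme early in the pathway, went from 113 and 62.0 CPM to 268 and 240 CPM (1.54, SE 0.23). The groups of both genes were apart. IDI1 rose by 1.45 (adjusted p = 0.0371 in edgeR), or by 0.94 without replicate 2 before serum (adjusted p = 0.00976).

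Of 15 genes of the BMP and TGF-beta response, 3 rose and 0 fell, ID2 and PMEPA1 among them. Taking out the GC trend gave 6 higher and 1 lower, and leaving out the second before-serum library gave 2 and 1. ID2, an inhibitor of basic helix-loop-helix factors, went from 51.9 and 26.8 CPM to 122 and 129 CPM (1.68, SE 0.31), and PMEPA1 rose by 1.67. Both lost their call without siPFDN2 before serum replicate 2 (adjusted p = 0.140 and 0.162 in edgeR).

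Of 15 clock genes, 2 rose and 1 fell. Taking out the GC trend gave 5 higher and 1 lower, and so did leaving out the second before-serum library. BHLHE40, a repressor, went from 27.5 and 35.9 CPM to 180 and 200 CPM (2.58, SE 0.23). CRY1 rose by 0.74 (adjusted p = 0.0499 in edgeR), but with the GC trend removed it stood at 0.35 and did not pass (adjusted p = 0.0545). DBP, a PAR leucine zipper factor, fell by 0.91 on the log2 scale (adjusted p = 0.0487), and its value was −0.52 with the GC trend removed. PER1, the clock gene induced by serum through CREB, read 21.0 and 51.1 CPM before serum, then 80.0 and 79.4 CPM after it. Its groups were apart, the log2 fold change was 1.14 (SE 0.31, adjusted p = 0.0716), and without replicate 2 it was 1.93 (adjusted p = 3.65e-06).

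Of the lists for later parts of the growth response, few genes passed at this time. With 3.26% of all tested genes called, lists of this size would hold few calls or none. The counts below therefore do not show that these lists failed to respond. None of 13 G1 cyclins and cell cycle inhibitors was called (medians −0.02, and 0.27 with the GC trend removed), with CCND1 at 0.16 (SE 0.14) and CDKN1A at −0.04 (SE 0.15). None of 24 ribosome biogenesis genes was called (median 0.04), and with the GC trend removed RRP12 was (0.62, adjusted p = 0.00213 in edgeR). Of the MYC network, 1 of 10 genes was called, MXD1, an antagonist of MYC (0.74, adjusted p = 0.0499 in edgeR), against 2 after taking out the GC trend and 3 after leaving out the second before-serum library. MYC read 175 and 235 CPM before serum, then 279 and 256 CPM after it. The groups did not overlap, but the change of 0.38 on the log2 scale (SE 0.18) did not pass (adjusted p = 0.186), and it was 0.61 with the GC trend removed (adjusted p = 0.0200). None of the 6 canonical prefoldin subunits and none of the 8 TRiC subunits was called, with log2 fold changes from −0.24 to 0.83 and from 0.02 to 0.51.

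The response was then set beside that of siControl, with which it shares no library. Under siControl 690 genes were called higher (2.47%) and 110 lower (0.394%). Called under both siRNAs were 491 genes, all with the same sign, 419 were called under siPFDN2 only and 309 under siControl only. Among the 910 genes called under siPFDN2, 905 had the same sign under siControl, and Pearson's r between the log2 fold changes was 0.923 across these genes, which are not independent replicates. The genes called higher had median log2 fold changes of 1.59 under siPFDN2 and 1.54 under siControl. For the genes called lower the medians were −1.10 and −0.59 (r = 0.317). These genes were chosen for their values under siPFDN2, and GC-rich genes were high in the second before-serum library of that group.

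**Figure D4:**
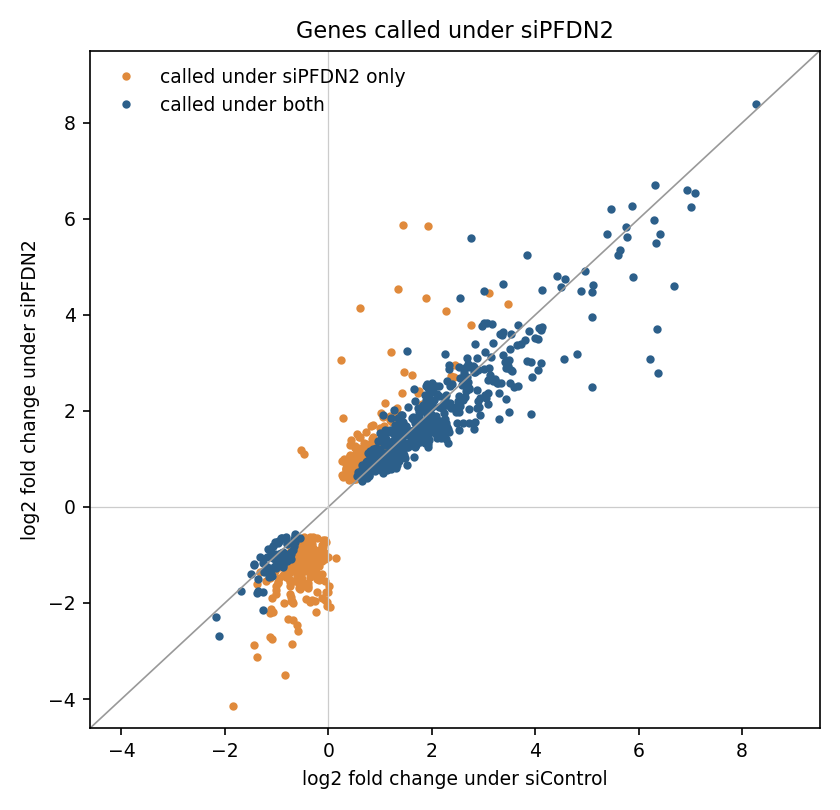
Log2 fold change after against before serum under siControl (x axis) and siPFDN2 (y axis) for the 910 genes called under siPFDN2, coloured by whether they were also called under siControl. The line marks equal values. Genes called higher scatter about the line, and genes called lower lie mostly below it.

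The difference of the 2 responses was tested directly. No gene passed (0 of 27915, edgeR's quasi-likelihood test), and 1841 had an unadjusted p under 0.05. DESeq2 called 2. NR4A3 differed by 0.12 (SE 0.21), CCN2 by 0.39 (SE 0.24), FOSB by −0.78 (SE 0.43), NR4A1 by −1.10 and CCN1 by −0.73, where negative means a smaller rise under siPFDN2. The siPFDN2 rises of FOSB, NR4A1 and CCN1 were 6.25, 4.79 and 5.69 as fitted. Without siPFDN2 before serum replicate 2 they were 6.88, 5.42 and 6.15. Under siControl these genes rose by 7.02, 5.89 and 6.41. The largest gaps by p in either direction were in RPF2P1, UBE2D3P1 and C17orf99 (larger under siPFDN2) and in AC146944.3, AC245041.2 and SLC25A39P1 (smaller), each with an adjusted p of 0.582. UBE2D3P1, a pseudogene, read 5.22 and 6.48 CPM before serum, then 12.9 and 12.5 CPM after it under siPFDN2, and its log2 fold change was 1.11 against −0.47 under siControl. A missed threshold does not show that the responses were alike.

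Unspliced RNA was read from intronic counts, which are gene-body counts minus exon counts in genes that overlap no other gene. Of 4890 such genes tested, 457 were called higher (9.35%) and 430 lower (8.79%) under siPFDN2. Exon counts of genes of this kind gave calls in 4.61% of 5288 tested, 150 higher (2.84%) and 94 lower (1.78%). In the 4406 genes with both readouts, 127 were higher in exons, 99 of them also in introns, and 72 were lower in exons, 20 of them also in introns. No gene was called in opposite directions. Intronic counts alone were called higher in 312 genes and lower in 405. Without siPFDN2 before serum replicate 2 the intronic calls were 245 higher and 119 lower.

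Whether the intronic and exonic ratios differed was tested in the same genes with an interaction term in edgeR. They differed in 8.90% of the genes. The intronic response was above the exonic one in 234 genes (5.31%) and below it in 158 (3.59%), and 227 and 155 of these were also called with the GC trend removed. Exonic and intronic CPM are each relative to the counts of that kind. LAMB3, which encodes a laminin chain, stood at 108.5 and 139 intronic CPM before serum and at 1585 and 1255 after it. Its exonic CPM were 174 and 291 before and 334 and 311 after. The introns thus rose by 3.52 on the log2 scale with groups far apart, and the exonic value was 0.47, which did not pass (difference 3.09, SE 0.21, adjusted p = 1.63e-07 in edgeR). Over the gene body LAMB3 stood at 0.74 (adjusted p = 0.0702 in edgeR), and at 1.15 without the second before-serum library (adjusted p = 1.05e-05). MGLL, monoglyceride lipase, differed by 3.01 in the same direction, FGFBP1, a secreted FGF carrier, by 2.80, MT1E, a metallothionein with close paralogs, by 2.78 and OSTCP1, a pseudogene, by 3.01. FGFBP1 introns held only 0.961 and 0.704 CPM before serum, near the floor, and its SE was 0.79. OSTCP1 exons read 6.23 and 0.679 CPM after serum, and its SE was 0.75.

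Several listed genes whose exons did not pass rose in introns. MYC introns went from 278 and 292 CPM to 834 and 710 CPM (1.44, adjusted p = 0.00231 in edgeR), while its exons stood at 0.37. NFKB1, NFKB2 and RELB, which encode NF-kB subunits, rose in introns by 1.72, 2.0 and 2.36, while their exons stood at 0.10, −0.08 and 0.72. FLNA, the actin cross-linker filamin A, rose in introns by 1.57 with its exons at −0.55. Its exonic CPM were 2399 and 4641 before and 2464 and 2340 after serum, so that the second before-serum library stood above the other 3. Over the gene body FLNA stood at −0.53, and at 0.01 without that library. For NFKB2 the gene-body value was −0.07 as fitted and 0.48 with the GC trend removed (adjusted p = 0.0220 in edgeR). In each of these 5 genes the intronic libraries after serum were above those before it.

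The opposite order was found in EGR, NR4A and ATF3 genes. EGR2 had the lowest value, with introns at 8.65 and 6.34 CPM before and at 17.3 and 16.4 CPM after serum, and exons at 4.05 and 4.70 before and at 179 and 225 after. The difference of its log2 fold changes was −4.26 (SE 0.52, adjusted p = 5.63e-05 in edgeR). These intronic CPM of EGR2 were low and rested on few fragments. The annotated gene spans chr10:62811996-62919900 on the minus strand, but its RefSeq promoter window lies at 62819118-62819417. Much of the counted intron was thus upstream of that start and may not be unspliced RNA from it. ATF3 differed by −3.46, NR4A3 by −3.42, NR4A2 by −3.05 and EGR1 by −2.27. EGR1 introns read 60.5 and 82.4 CPM before serum, then 47.1 and 78.3 CPM after it, overlapping, while its exons rose by 2.12. NR4A3 introns did rise, from 25.9 and 31.0 CPM to 1409 and 1542 CPM (5.68). SIK1B, nearly identical in sequence to SIK1 so that its counts are uncertain, differed by −3.71. CDKL4 differed by −3.69 and had no more than 1.31 exonic CPM. Without siPFDN2 before serum replicate 2, 93 genes had introns above exons and 39 below.

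**Figure D5:**
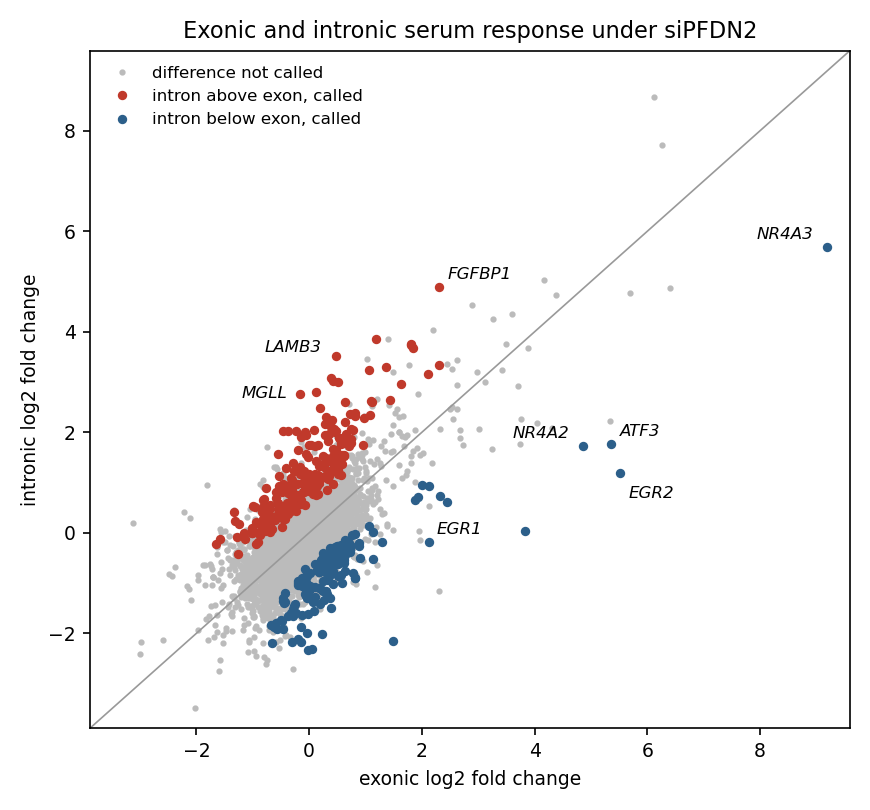
Exonic (x axis) and intronic (y axis) log2 fold change after against before serum under siPFDN2 in the 4406 genes with both readouts. The line marks equal values. The 234 genes above the line that passed the test include LAMB3 and MGLL, and the 158 below it include EGR2, ATF3 and NR4A2.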

How the data were processed

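The members and gene lists were chosen with earlier results of these data known. The authors deposited count tables over gene bodies and over exons, made with featureCounts 1.5.2 on Ensembl release 87 of GRCh38 without a strand option, and fragments that lay over more than 1 gene were counted in every such gene, per the file headers. The deposited files per sample hold estimated counts per transcript. The submitters' processing notes also name HISAT2 and kallisto 0.43. The count tables hold 6 further columns that match no sample label and were not used here.

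Gene-body counts were fitted with edgeR 4.0.16 in R 4.3.3 (filterByExpr, TMM scaling, robust quasi-likelihood, 6 group means over 12 libraries, 6 residual degrees of freedom), two-sided, with a threshold of 0.05 on the Benjamini-Hochberg adjusted p. Each SE was derived from the fold change and its test statistic. A prior count of 2 was used for log2 CPM. The GC trend of each library (lowess, span 0.3) was removed as an alternative offset. Introns and exons were compared with the library as a block. Names and positions are from GENCODE release 29, and promoters from RefSeq (GRCh38.p14). Estimated counts were rounded to whole numbers.

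Named genes were the 12 protein-coding genes with the largest log2 fold change in each direction (called with and without the GC trend, mean log2 CPM of at least 2, groups apart), leading or contrary list members, PFDN2, the 5 genes at each end of intron minus exon, and 3 by p in each direction of the difference from siControl. Some genes that meet this rule are not reported here. RCAN1 and ACTG2, named for a CArG box, were chosen after their values were seen. On simulated data with known changes in the siPFDN2 serum response, changes of 2-fold were found in 44% and of 4-fold in 99% of 100 genes each, with 6 false calls among 27164 genes. For intron minus exon, 2-fold changes were found in 49% and 4-fold changes in 92% of 100 genes each, with 9 false calls in 4288 genes.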

Additional observations from a re-analysis of the deposited data

How the results depend on the processing

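Counts of genes called under siPFDN2 moved with the setting. Every one of the 910 called genes that could be tested kept its sign when any 1 library was left out. Since the before-serum and after-serum libraries of every called gene were apart, this could hardly have come out otherwise. With 574 higher and 336 lower as the reference, the counts were 1878 and 3416 without a filter, 1112 and 764 with the GC trend removed, 1209 and 1923 with DESeq2, 37 and 0 in the 4 siPFDN2 libraries alone, and 286 and 135 from transcript estimates. Exon counts gave 214 lower genes. Scaling by library size alone gave 2846 lower and shifted the median of all genes to −0.227. Leaving out 1 library gave 235 to 7229 higher and 7 to 7035 lower genes. The highest counts came without siPFDN2 before serum replicate 1, which leaves the library with the GC trend as the only one before serum, and the lowest without siPFDN2 after serum replicate 1. Leaving out any library of another group gave 405 to 556 higher and 112 to 190 lower genes.

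The difference from siControl gave 0 genes, but 663 without a filter, 2 with DESeq2, and 0 to 11061 when 1 library was left out, the highest again without siPFDN2 before serum replicate 1. Intronic calls, 457 higher and 430 lower, ranged from 228 to 851 and from 88 to 857 when 1 library was left out. Library size alone gave 750 lower, and the 4 siPFDN2 libraries alone gave 245 lower. Introns above exons, 234, became 141 in the 4 libraries alone and 46 to 335 when 1 library was left out. Introns below exons, 158, became 328 without a filter, 259 with the GC trend removed, 67 in the 4 libraries alone and 23 to 647 when 1 library was left out. Removal of the GC trend together with siPFDN2 before serum replicate 2, chosen after seeing the data, gave 281 higher and 152 lower genes in introns, and 113 above and 89 below for introns against exons.

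Replicate numbers were not taken as pairs: deviations of same-numbered libraries correlated at 0.065 in siPFDN2, −0.189 in siControl and 0.313 in siPFDN5. With the replicate block the serum response gave 532 higher and 232 lower genes, and with the GC trend removed as well 975 and 593. The cause of these changes was not tested. With 2 libraries per group, 6 residual degrees of freedom and 1 siRNA, effects under 2-fold were often below what the test could call.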
